A study of Homo sapiens with 27 samples.

Results

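LINC genes are loci whose symbol is LINC followed by digits, the placeholder name given to long intergenic noncoding RNAs. Here they were taken from poly(A) RNA-Seq of U2OS osteosarcoma cells when their mean over all 27 libraries reached 0.5 CPM (raw counts scaled by the total on genes of each library). Members were thus selected on their mean level, whatever its course. Of 613 such symbols counted, 142 passed and 146 had no read in any library. The 9 groups of 3 libraries came from a control line with the blank vector pLKO.1 (WT in the labels) and from MMP2sh1 (shRNA 23) and MMP2sh2 (shRNA 26), both with a hairpin against MMP2, the gene of matrix metalloproteinase 2. All lines were stably transduced with lentivirus and selected in puromycin, and each hairpin is represented by 1 transduced line. Cells were plated at 30% confluence (subconfluent, day −2), reached confluence 2 days later (day 0) and became overconfluent after 2 more days (day +2). The study describes the replicates as independent biological ones.

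Long noncoding RNAs are transcribed, spliced and polyadenylated like messenger RNAs but are mostly not translated. Some act where they are made, on a gene nearby, and others leave the site and bind proteins or other RNAs. A LINC symbol is given by position and not by sequence or function, so its members do not form a family. Several LINC loci were later found to encode small proteins or to be promoter-sharing partners of a coding gene, and were then renamed. In osteosarcoma and other tumours a number of them, among them LINC00152 (CYTOR), LINC00511 and LINC00707, have been studied for their part in growth and invasion.

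Between 33580129 and 59374327 reads were counted on genes in each library. Mesenchymal genes were abundant (VIM 678 to 840 CPM, COL1A1 1004 to 1486 CPM), as was SPARC (1182 to 2074 CPM). Of the osteoblast genes RUNX2 was at 30.0 to 63.7 CPM, SPP1 at 6.33 to 26.2 CPM and ALPL at 0.397 to 6.98 CPM, while COL1A2, SP7, BGLAP and IBSP were at 0.683 CPM or less in every library. Markers of other cell types were highest for RBFOX3 (2.33 to 21.9 CPM), MAP2 (3.00 to 16.9 CPM), KRT14 (0.811 to 12.8 CPM), EPCAM (3.11 to 6.73 CPM) and SYP (1.46 to 5.05 CPM). The others were at 4.74 CPM or less, with ADIPOQ at 0. MMP2sh1 subconfluent replicate 1 stood apart from its replicates (chi-square per degree of freedom over genes 19.3 and 24.6, the highest of all replicate pairs). MMP2 averaged 232, 325 and 489 CPM in control at days −2, 0 and +2, against 40.1, 59.1 and 97.0 CPM in MMP2sh1 and 144, 158 and 278 CPM in MMP2sh2. Mitochondrial genes took 4.16% to 7.15% of counts, with 4.16% to 6.55% at day −2 and 5.49% to 7.15% at day +2, ranges that overlap. In bulk RNA, fewer cells that make an RNA and less of it per cell cannot be told apart.

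Most members were rare. Mean levels were under 1 CPM in 28 members, from 1 to 10 CPM in 81 and 10 CPM or more in 33, with a median of 2.92 CPM. Just above the limit were LINC00308 (0.556 CPM) and LINC01138 (0.530 CPM), and just below it LINC00961 (0.499 CPM) and LINC00877 (0.498 CPM), so a member that was high in 1 group could enter through that group. The 10 most abundant members held 53.7% of all member reads, and LINC00657 (NORAD), an RNA that binds the Pumilio proteins, alone held 16.6%. It averaged 265 CPM over all libraries, followed by LINC00963 at 187 CPM and LINC00452 at 89.6 CPM. Per kilobase of annotated exon, a scale that allows genes to be compared, LINC00657 was at 49.1 CPM, LINC00973 at 42.9 CPM, LINC00452 at 24.5 CPM and LINC00963 at 13.3 CPM. Annotated exons come from GENCODE v44 and not from the annotation used for counting, so these levels per length are approximate.

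Positions on GRCh37 were found for 129 members, spread over 23 chromosomes. Of these, 11 are now annotated as protein coding, and 40 of the 142 carry another name in RefSeq. Exons of 75 members overlap those of another annotated gene, on the opposite strand in 58. Because the reads were counted without strand, those counts may be mixed with or reduced by the partner's reads. The start of a member lay a median of 48.6 kb from the start of the nearest coding gene.

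RefSeq promoters, from 250 bases before to 50 after the annotated start on GRCh38.p14, were found for 96 members. Those of 4 members are printed because these members differed between the lines in the results that follow and hold the letters searched for. Capitals mark TGACTCA (the AP-1 site, here seen as its reverse complement), GGAATG (the TEAD site, also reversed) and TATAAA.
LINC00657 (NORAD): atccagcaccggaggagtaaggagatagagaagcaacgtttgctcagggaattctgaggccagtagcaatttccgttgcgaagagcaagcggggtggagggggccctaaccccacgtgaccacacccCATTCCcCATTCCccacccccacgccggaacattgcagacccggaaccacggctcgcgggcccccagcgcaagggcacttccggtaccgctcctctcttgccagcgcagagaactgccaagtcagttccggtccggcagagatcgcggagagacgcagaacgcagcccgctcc
LINC00152 (CYTOR): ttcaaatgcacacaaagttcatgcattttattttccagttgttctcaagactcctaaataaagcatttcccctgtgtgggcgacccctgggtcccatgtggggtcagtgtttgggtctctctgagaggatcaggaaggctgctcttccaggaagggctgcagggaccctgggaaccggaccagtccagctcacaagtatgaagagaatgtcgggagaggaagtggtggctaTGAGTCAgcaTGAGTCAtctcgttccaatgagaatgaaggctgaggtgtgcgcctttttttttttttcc
LINC00601: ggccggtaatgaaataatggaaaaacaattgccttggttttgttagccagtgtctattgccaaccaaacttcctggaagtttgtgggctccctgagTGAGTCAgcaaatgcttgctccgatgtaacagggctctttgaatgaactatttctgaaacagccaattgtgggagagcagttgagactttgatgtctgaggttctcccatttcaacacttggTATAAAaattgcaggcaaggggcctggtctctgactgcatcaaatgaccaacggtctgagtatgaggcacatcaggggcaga
LINC00704 (MANCR): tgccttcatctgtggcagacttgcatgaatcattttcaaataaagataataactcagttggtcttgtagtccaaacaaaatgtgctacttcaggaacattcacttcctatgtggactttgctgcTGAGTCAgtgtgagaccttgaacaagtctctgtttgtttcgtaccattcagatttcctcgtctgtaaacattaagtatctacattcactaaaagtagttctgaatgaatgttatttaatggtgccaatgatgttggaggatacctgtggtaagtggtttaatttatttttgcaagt
The promoter of LINC00657 is at chr20:36050911-36051210 (minus strand), that of LINC00152 at chr2:87455177-87455476 (plus), that of LINC00601 at chr10:126421830-126422129 (minus) and that of LINC00704 at chr10:4678021-4678320 (minus). The AP-1 letters begin 19 and 9 bases before the start of LINC00152, while those of LINC00601 and LINC00704 stand 154 and 126 bases before it. In LINC00601 the TATAAA letters begin 32 bases before the start. Searched on both strands, TGACTCA was in 9 of the 96 member promoters (9.38%) and in 4.92% of all 27305 promoters. GGAATG was in 9 (9.38%) against 14.05% of all, the cAMP response element in 2 (2.08%) against 1.98%, and TATAAA in 6 (6.25%) against 7.71%. The searched words do not contain one another. Among the 37 members called between a knockdown line and control, 27 had a promoter and 5 of them held TGACTCA. These matches describe letters in a fixed window and not bound sites.

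The first question was how the members changed as control cells expanded from subconfluent to overconfluent. In edgeR's quasi-likelihood test, with p-values adjusted over all genes, 83 of the 142 members changed, when 56.8% of all 19099 genes did. Of these, 60 rose (42.3% of members, against 28.1% of all genes) and 23 fell (16.2%, against 28.6%). The median log2 fold change was 0.29 over members and 0.03 over all genes. More than a 2-fold rise was measured in 29 called members and more than a 2-fold fall in 12. The share of all genes over 2-fold was not computed, so these 2 counts are a description. The 29 include LINC00589, LINC00326 and LINC00861, members through the overconfluent stage alone. Antisense genes, named by the ending -AS and digits, were counted for comparison, and 106 of 332 rose while 36 fell. Scaled by raw totals alone, the summed members had medians of 1526, 1580 and 1705 CPM in subconfluent, confluent and overconfluent control cells. Levels of single members are also divided by TMM factors, which were larger in the later stages. Subconfluent control libraries had factors of 0.960 to 0.973, confluent ones 1.015 to 1.031 and overconfluent ones 1.040 to 1.043. The size and course of the summed rise therefore depend on the scaling, and TMM-scaled sums were not computed. Mitochondrial genes took 4.16% to 5.30% of subconfluent and 5.49% to 6.37% of overconfluent control counts, and their part in the rise was not tested.

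**Figure D1:**
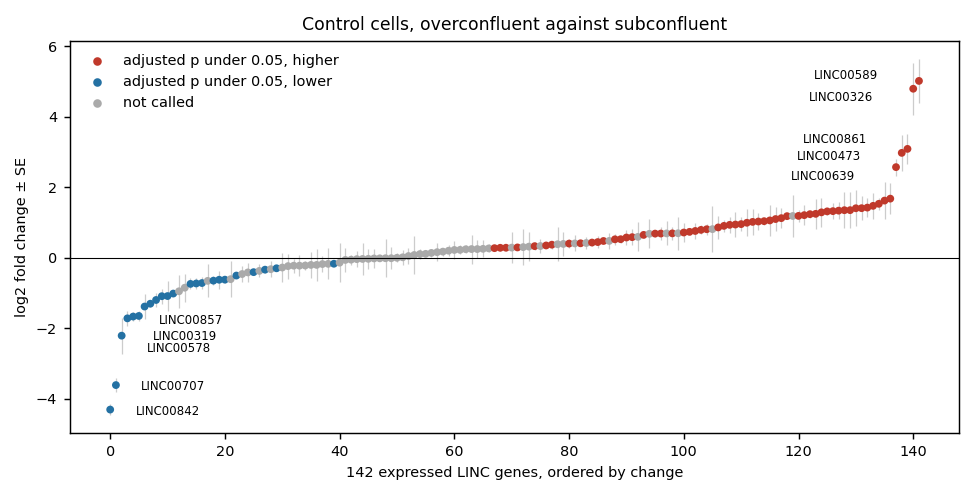
Log2 fold change (y axis, ± SE) of each of the 142 members between overconfluent and subconfluent control cells (3 libraries each), ordered along the x axis by change. Red points rose, blue points fell and grey points were not called. LINC00842 and LINC00707 stand apart at the low end (−4.31 and −3.61), and LINC00589 and LINC00326, members through the overconfluent stage alone, at the high end (5.01 and 4.79).

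LINC00842, a lincRNA at chr10:47011753-47174018 (GRCh37, minus strand), had the largest fall. Its control levels were 26.99, 27.4 and 25.4 CPM at day −2, 14.1, 14.1 and 15.4 CPM at day 0 and 1.11, 1.84 and 1.04 CPM at day +2. No library of a later day reached the range of an earlier one, and the log2 fold change from day −2 to day +2 was −4.31 ± 0.15 (SE, adjusted p = 4.82e-19). Its 5′ end lies 75 bases from that of ANXA8L1, an annexin gene in a duplicated region with near-identical copies, and their exons overlap by 121 bases on the same strand. ANXA8L1 fell by 5.18 on the log2 scale in the same comparison, so the reads of both are uncertain.

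LINC00707, an RNA studied in several cancers, is at chr10:6821511-6884868 (GRCh37, plus strand). Control cells held 13.4, 16.004 and 11.6 CPM at day −2, 5.26, 3.95 and 4.82 CPM at day 0 and 1.76, 0.711 and 0.919 CPM at day +2. The days did not overlap and the change over the whole expansion was −3.61 ± 0.21 (SE, adjusted p = 4.25e-14). LINC00578 went from 0.848, 1.02 and 1.14 CPM to 0.170, 0.270 and 0.193 CPM, a log2 fold change of −2.21 ± 0.51 (SE, adjusted p = 5.81e-04). LINC00857, which starts 1800 bases from ANXA11 on the other strand, went from 15.8, 17.02 and 17.3 CPM to 6.04, 5.25 and 4.401 CPM, with −1.67 ± 0.12 (SE, adjusted p = 4.66e-12), while ANXA11 fell by 0.32. LINC00319 fell by 1.72, LINC00862 by 1.65, LINC00508 by 1.39 and LINC00958 by 1.31.

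Among the rises, 3 members reached the membership limit through the overconfluent stage alone. LINC00326, LINC00589 and LINC00861 averaged 0.0340, 0.108 and 0.305 CPM over the subconfluent libraries of all lines, 0.163, 0.315 and 0.244 CPM over the confluent ones and 1.46, 1.34 and 3.05 CPM over the overconfluent ones. A higher level at day +2 was therefore needed for them to be members, and their values are a description without a test. LINC00589 had 6 reads in the 3 subconfluent control libraries together and 179 in the overconfluent ones, or 0.0692, 0 and 0.0585 CPM against 1.22, 1.52 and 1.79 CPM. LINC00326 had 7 reads against 185. In MMP2sh2 no subconfluent library held a read of LINC00326, and against a floor of 3 counts per library it was at least 11.6-fold higher at day +2. Control libraries held 0.311, 0.0710 and 0.731 CPM of LINC00861 at day −2, 0.173, 0.258 and 0.0974 CPM at day 0 and 2.95, 2.502 and 3.58 CPM at day +2. These 3 are among the 60 members counted as rising.

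LINC00473, known as a target of cAMP signalling, went from 0.0692, 0.260 and 0.234 CPM to 1.59, 1.398 and 1.28 CPM, a change of 2.97 ± 0.52 (SE, adjusted p = 1.92e-05). LINC00639 rose at both steps, from 0.934, 0.758 and 0.906 CPM through 2.47, 2.45 and 3.19 CPM to 6.55, 4.56 and 4.33 CPM, and changed by 2.57 ± 0.24 (SE, adjusted p = 9.07e-10). The next were LINC00478 (MIR99AHG), the host of the let-7c and miR-125b-2 hairpins, at 1.67, LINC00893 at 1.62 and LINC00174 at 1.53. Of the 10 most abundant members, LINC00511 rose most, from 26.8, 25.8 and 28.97 CPM to 62.7, 58.96 and 61.8 CPM, a change of 1.18 ± 0.07 (SE, adjusted p = 1.69e-14) without overlap.

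**Figure D2:**
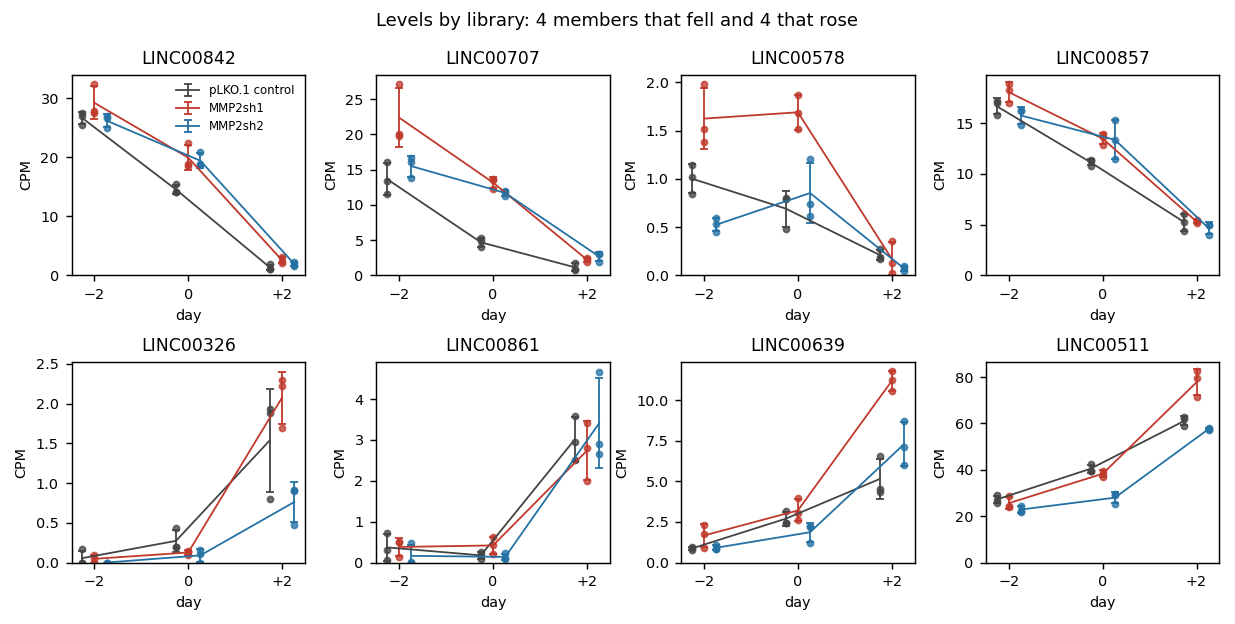
Level in CPM (y axis, from 0) by day (x axis) in control (dark grey), MMP2sh1 (red) and MMP2sh2 (blue). Points are single libraries, lines join means of 3 and bars are SDs. The upper row shows members that fell and the lower row members that rose. LINC00842, LINC00707, LINC00578, LINC00857, LINC00639 and LINC00511 were called in each of the 3 lines. LINC00326 and LINC00861 are members through the overconfluent stage alone, so their values are a description without a test.

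Expansion was also measured in each knockdown line, on libraries shared with no other line. In MMP2sh1 80 of 142 members changed (58 up, 22 down), against 54.9% of all genes (27.3% up, 27.7% down). MMP2sh2 had 72 (54 up, 18 down), against 54.7% (27.7% up, 27.1% down). The member medians were 0.34 and 0.37, those of all genes 0.04 and 0.05, and with LINC00326 at its bound the MMP2sh2 median stayed at 0.37. In all 3 lines 37 members rose and 14 fell (26.1% and 9.86% of members), as did 19.4% and 21.6% of the 18164 genes tested in every line. LINC00326, LINC00589, LINC00861 and LINC00704, members through the overconfluent stage alone, were left in the counts of each line. A part of the member rises may thus come from the selection, and shares without these members were not computed. Those 37 were 61.7% of the control rises, 63.8% of the MMP2sh1 rises and 68.5% of the MMP2sh2 rises, and the 14 were 60.9%, 63.6% and 77.8% of the falls. Across the 142 members, log2 fold changes of control and MMP2sh1 had r = 0.88, of control and MMP2sh2 0.84 and of both knockdown lines 0.91. The members through the overconfluent stage alone are included, among them LINC00326 with 0 reads in subconfluent MMP2sh2. A few extreme values may carry part of r, which was not computed without them. Genes are not independent replicates, so no p-value was computed. At the other end, 36 members were called in no line, a count for which no share over all genes was computed.

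Control cells were also followed in 2 steps. From day −2 to day 0, 44 of 141 members changed (26 up, 18 down), against 35.5% of all genes (16.4% up, 19.1% down). From day 0 to day +2, 58 of 142 changed (40 up, 18 down), against 41.4% (21.3% up, 20.1% down). The 4 members that reached the limit through the overconfluent stage alone were left in here too. Both steps share the confluent libraries, and so only the values of single members are set side by side. In 8 members both steps went up and in 8 both went down (5.67% each), against 5.88% and 8.63% of all genes tested at both steps.

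In control, 6 members fell at the first step and rose at the second, namely LINC00460, LINC00520, LINC00657, LINC00702, LINC00941 and LINC01137. They were 4.26% of members, against 3.44% of all genes. LINC00941 held 7.68, 8.07 and 5.73 CPM at day −2, 6.103, 4.96 and 4.73 CPM at day 0 and 12.1, 12.2 and 12.8 CPM at day +2. Its day +2 libraries stood above all others, with steps of −0.44 and 1.25 (adjusted p = 0.0276 and 2.52e-09), but the first 2 days overlapped and the first step was lost without any 1 of 4 libraries (confluent replicate 2 or 3, subconfluent replicate 1 or 2), at −0.35 to −0.40. LINC00520 held 1.903, 1.85 and 1.49 CPM, then 0.541, 0.816 and 0.706 CPM and then 1.33, 1.74 and 2.03 CPM. It dipped at confluence without overlap, with steps of −1.34 and 1.33 (adjusted p = 0.00281 and 0.00311). The reverse order was found in 1 member, LINC01021 (PURPL), a target of p53, and in 2.83% of all genes. Its values were 15.9, 17.8 and 17.7 CPM, 26.1, 26.8 and 24.8 CPM and 19.9, 20.1 and 21.96 CPM, highest at confluence in every library, with steps of 0.61 and −0.30 (adjusted p = 1.35e-06 and 0.00281).

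By role, 8 of 12 listed loci that encode or may encode a small protein were members. In control expansion 3 of them rose and 3 fell, with a median of −0.03, when 28.1% of all genes rose and 28.6% fell. LINC00116 (MTLN), the gene of the mitochondrial microprotein mitoregulin, fell from 26.2, 27.6 and 25.4 CPM to 14.8, 18.7 and 17.7 CPM, a change of −0.62 ± 0.09 (SE, adjusted p = 1.10e-06). It fell by 0.84 in MMP2sh1 and 0.83 in MMP2sh2. LINC00984 (INAFM2) fell by 0.65 and LINC00094 (BRD3OS) by 0.17 in control. LINC00493 (SMIM26), another mitochondrial small protein, rose by 0.35 ± 0.09 (SE, adjusted p = 0.00123) in control, from 22.2, 23.04 and 18.2 CPM to 27.5, 26.6 and 26.5 CPM. LINC00467 rose by 1.33 and LINC00086 by 0.93, the last having a near-identical copy, LINC00087, that may share its reads. LINC00998 (SMIM30), an abundant small membrane protein gene, was not called in control expansion (0.11, adjusted p = 0.217).

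Of 15 listed RNAs with a described role 10 were members, and 4 rose and 2 fell in control expansion, with a median of 0.24. Among all genes 28.1% rose and 28.6% fell. LINC00152 (CYTOR), a regulator of cell migration, fell from 59.8, 56.98 and 50.5 CPM to 40.7, 44.9 and 39.95 CPM, a change of −0.41 ± 0.07 (SE, adjusted p = 1.01e-05). Hosts of small RNAs were 2 members of 4 listed. LINC00338 (SNHG20), a snoRNA host, had 0.20 (adjusted p = 0.301) in control expansion, and LINC00478 is given above. Of 15 other snoRNA hosts, named SNHG, 4 rose and 8 fell, with a median of −0.29, against the same shares of all genes.

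Many members lie beside coding genes whose changes can be read in the same libraries. For 90 members the nearest coding gene was tested too, and 59 of these pairs have starts within 100 kb. In this comparison 33 of the 59 members and 39 of their neighbours were called, as were 56.8% of all genes. Both partners were called in 24 pairs, with the same sign in 18, and no share over other neighbouring genes was computed. The log2 fold changes had r = 0.60 and rho = 0.39 across the near pairs, but r = 0.34 without LINC00842 and ANXA8L1, whose exons overlap. In the 31 pairs farther apart r was 0.13 and rho 0.20. Genes are not replicates and overlapping pairs can exchange reads, so these are descriptions only.

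Some pairs, chosen after their values were seen, serve as examples. LINC01158 (PANTR1) starts 104 bases from POU3F3, a neural transcription factor gene, and they rose by 1.02 and 0.83. LINC00936 rose by 1.42 beside ATP2B1, a plasma membrane calcium pump gene, at 0.89. LINC01152 rose by 1.12 upstream of SOX9, the chondrogenic regulator, at 0.89, their starts being 90729 bases apart. LINC00601, at chr10:128102438-128110448 (GRCh37, minus strand), fell by 1.20 while ADAM12, a membrane protease gene 33402 bases away, fell by 2.55. Opposite signs were found as well. LINC00263 rose by 0.73 while SCD, a fatty acid desaturase gene, fell by 1.26, and LINC00452 fell by 1.02 while GAS6, a ligand of TAM receptors, rose by 1.67.

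**Figure D3:**
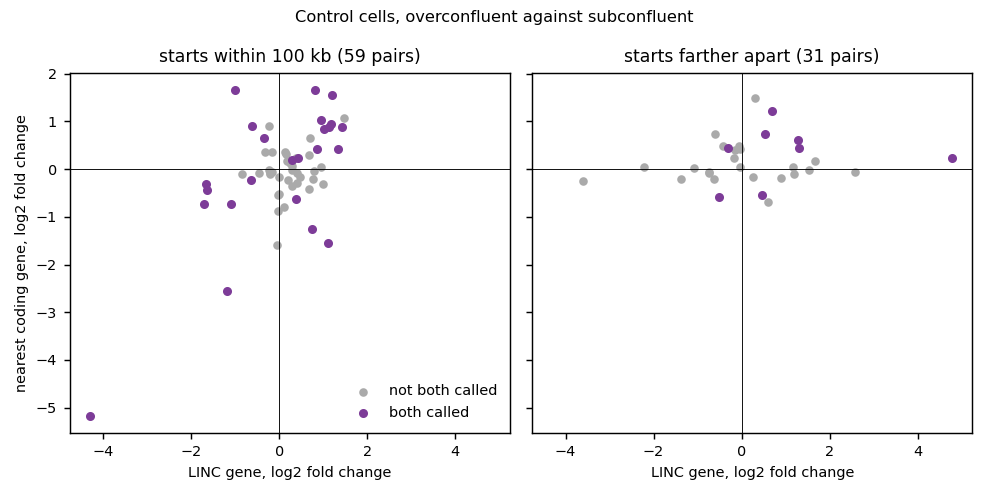
Log2 fold change of each member (x axis) and of its nearest coding gene (y axis) between overconfluent and subconfluent control cells. The left panel holds 59 pairs with starts within 100 kb and the right panel 31 pairs farther apart, with purple points where both genes were called. The point at the lower left is LINC00842 with ANXA8L1 (−4.31 and −5.18).

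The next question was which members differed between MMP2-depleted and control cells of the same density. MMP2sh1 differed from control in 10 of 139 members tested at day −2 (7 higher, 3 lower), when 11.6% of all genes did (5.42% higher, 6.14% lower). At day 0 it differed in 16 of 141 (12 higher, 4 lower), against 16.8% (8.26% and 8.58%), and at day +2 in 17 of 141 (15 higher, 2 lower), against 14.8% (7.68% and 7.11%). MMP2sh2 differed in 11 of 140 (4 higher, 7 lower), against 11% (4.71% and 6.33%), in 14 of 140 (7 and 7), against 12.9% (7.07% and 5.81%), and in 4 of 141 (3 and 1), against 6.32% (2.89% and 3.43%). In none of the 6 comparisons was the called share of members above that of all genes. Member medians ranged from −0.05 to 0.05. The knockdown lines share their control libraries, so their values are given side by side and no agreement between them is counted.

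These counts moved when a library was left out. Shares of all genes in the same fits are not given here, and whether members moved more than other genes was not tested. At day −2, MMP2sh1 had 16 called members without its replicate 1 and 6 without its replicate 2, and MMP2sh2 had 5 without control replicate 1, 6 without control replicate 3 and 7 without its replicate 2. At day 0, MMP2sh2 had 9 without its replicate 3. At day +2, MMP2sh1 had 11 without control replicate 3 or without its own replicate 1, and MMP2sh2 had 2 without control replicate 2.

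LINC00707 was called higher in MMP2sh1 at all 3 days and in MMP2sh2 at days 0 and +2, against the same control libraries. At day 0 it held 5.26, 3.95 and 4.82 CPM in control, 12.3, 13.6 and 13.5 CPM in MMP2sh1 and 11.2, 11.99 and 11.8 CPM in MMP2sh2. Every knockdown library was above every control library, with log2 fold changes of 1.49 ± 0.13 (SE, adjusted p = 9.22e-11) and 1.31 ± 0.13 (SE, adjusted p = 5.87e-09). At day −2 MMP2sh1 held 27.2, 20.1 and 19.8 CPM and MMP2sh2 16.6, 16.05 and 13.8 CPM, against 13.4, 16.004 and 11.6 CPM in control, with 0.71 ± 0.12 (SE, adjusted p = 2.81e-04) in MMP2sh1 and 0.18 in MMP2sh2 (adjusted p = 0.362). At day +2 the log2 fold changes were 0.98 ± 0.32 (SE, adjusted p = 0.0365) and 1.24 ± 0.30 (SE, adjusted p = 0.00609). These last calls rest on 29 to 62 control reads per library. Without control replicate 2 they became 0.73 (adjusted p = 0.188) and 1.00 (adjusted p = 0.0689). The MMP2sh1 call was also lost without control replicate 3, or without its own replicate 1 or 3, at 0.85, 0.91 and 0.95.

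LINC00601, the neighbour of ADAM12, was called in MMP2sh1 at all 3 days. At day −2 its libraries held 7.49, 7.33 and 8.25 CPM against 4.14, 5.04 and 4.39 CPM in control, and at day 0 4.88, 4.14 and 4.25 CPM against 1.905, 2.43 and 2.02 CPM. Neither day overlapped, with log2 fold changes of 0.77 ± 0.15 (SE, adjusted p = 0.00108) and 1.06 ± 0.20 (SE, adjusted p = 1.83e-04). The call at day +2, 0.78 ± 0.23 (SE, adjusted p = 0.0228), was lost without any 1 of 5 of the 6 libraries (log2 fold changes 0.66 to 0.80), being kept without MMP2sh1 replicate 2. MMP2sh2 gave −0.12 at day −2 and 0.69 at day 0 (adjusted p = 0.732 and 0.0339), the latter lost with no filter on low counts (adjusted p = 0.0545) and without any 1 of 5 libraries.

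LINC00842, whose exons overlap those of ANXA8L1, was higher at day 0 in both lines. It held 18.8, 18.5 and 22.4 CPM in MMP2sh1 and 18.8, 20.8 and 18.6 CPM in MMP2sh2 against 14.1, 14.1 and 15.4 CPM in control, without overlap, with 0.45 ± 0.09 (SE, adjusted p = 5.94e-04) and 0.40 ± 0.09 (SE, adjusted p = 0.00246). At day +2 LINC00842 was higher in MMP2sh1, by 0.93 ± 0.29 (SE, adjusted p = 0.0263), and not called in MMP2sh2 (0.52, adjusted p = 0.381). At day −2 it was called in neither line (0.13 and −0.03, adjusted p = 0.369 and 0.869). LINC00704 (MANCR), at chr10:4623487-4720408 (GRCh37, minus strand) and named for its link to mitosis, had the largest difference from control. At day +2 it held 5.72, 3.45 and 4.91 CPM in MMP2sh1, 2.23, 1.55 and 1.18 CPM in MMP2sh2 and 0.823, 0.711 and 0.895 CPM in control. All knockdown libraries were above control, with a log2 fold change of 2.53 in MMP2sh1 and of 1.03 in MMP2sh2. At the earlier days every library of the 3 lines was under 1 CPM, so it too was a member through the overconfluent stage. Its day +2 values are therefore a description without a test, though it is counted among the called members of MMP2sh1 at that day.

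LINC00639, a member that rose with expansion, was higher still in overconfluent MMP2sh1, with 11.8, 10.6 and 11.2 CPM against 6.55, 4.56 and 4.33 CPM and no overlap, a change of 1.12 ± 0.15 (SE, adjusted p = 1.55e-06). LINC00702 was called in MMP2sh1 at days 0 and +2, with 1.00 ± 0.22 (SE, adjusted p = 0.00138) and 0.66 ± 0.19 (SE, adjusted p = 0.0177). LINC00941 was called on the same days, with 0.44 ± 0.14 (SE, adjusted p = 0.0285) and 0.47 ± 0.10 (SE, adjusted p = 9.18e-04). In MMP2sh2 none of them was called at any day. LINC00639 was at 0.06, −0.54 and 0.51 at days −2, 0 and +2, LINC00702 at −0.58, 0.56 and 0.23 and LINC00941 at −0.07, 0.03 and 0.17 (adjusted p = 0.0535 to 0.947). The day 0 call of LINC00941 was lost without any 1 library other than control replicate 1. That of LINC00702 at day +2 was lost without control replicate 3 (0.51, adjusted p = 0.119) or MMP2sh1 replicate 1 or 3.

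Some members were called once and on fewer reads. LINC01134 was higher in MMP2sh1 at day −2, by 0.79 (adjusted p = 0.0386), with 2.76, 3.36 and 2.68 CPM against 1.47, 1.63 and 2.05 CPM in control. LINC00578, which fell with expansion, was higher in MMP2sh1 at day 0, with 1.69, 1.87 and 1.51 CPM against 0.476, 0.795 and 0.804 CPM and a change of 1.29 ± 0.35 (SE, adjusted p = 0.00753). LINC00299 and LINC00898 were lower in MMP2sh1 at day 0, with log2 fold changes of −1.07 and −0.64 (adjusted p = 0.0425 and 0.0226). LINC00645 was lower in MMP2sh2 at day −2, with a log2 fold change of −1.98 (adjusted p = 0.0495), with 0.120, 0.0406 and 0.453 CPM against 0.952, 0.568 and 0.789 CPM. LINC00920 was called with opposite signs, at −0.63 in MMP2sh2 at day 0 and 0.63 in MMP2sh1 at day +2 (adjusted p = 0.0464 and 5.94e-04). Most of these calls were lost without 1 library. They became 0.68 (adjusted p = 0.17) for LINC01134 and −1.77 (adjusted p = 0.229) for LINC00645 without subconfluent control replicate 1. Without confluent control replicate 1, LINC00299 was at −0.98, LINC00898 at −0.43 and LINC00920 in MMP2sh2 at −0.58 (adjusted p = 0.144, 0.223 and 0.144). Those of LINC00578 and of LINC00920 in MMP2sh1 were kept without each library in turn.

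LINC00152 (CYTOR) was higher at day 0, with 50.4, 55.4 and 50.97 CPM in MMP2sh1 and 60.8, 62.4 and 56.5 CPM in MMP2sh2 against 46.96, 44.7 and 45.04 CPM in control. The log2 fold changes were 0.19 ± 0.06 (SE, adjusted p = 0.0221) and 0.38 ± 0.06 (SE, adjusted p = 2.57e-05), and the first was not called with all 27 libraries in one fit (adjusted p = 0.0998). No knockdown library overlapped control. The MMP2sh1 call was also lost without its replicate 2 (0.15, adjusted p = 0.169) and without control replicate 2 or 3.

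LINC00338 (SNHG20) was higher in both lines at the first 2 days. At day −2 control held 5.797, 6.25 and 4.97 CPM, MMP2sh1 9.11, 10.5 and 9.08 CPM and MMP2sh2 9.06, 7.52 and 7.87 CPM. Neither knockdown line overlapped control, with 0.75 ± 0.14 (SE, adjusted p = 6.33e-04) and 0.51 ± 0.14 (SE, adjusted p = 0.0202). At day 0 the values were 0.44 and 0.43 (adjusted p = 0.00996 and 0.0223), the first being 0.42 (adjusted p = 0.0502) without MMP2sh1 replicate 1. The MMP2sh2 call at day 0 was lost without control replicate 2 or 3 or its own replicate 3, at 0.40, 0.41 and 0.34, and that at day −2 without control replicate 1 or 3 or its own replicate 1. Among the 15 genes named SNHG, MMP2sh1 had 4 higher and 0 lower at day −2 (median 0.14), against 5.42% and 6.14% of all genes, and MMP2sh2 had 3 and 0 (median 0.10), against 4.71% and 6.33%. At day 0 they were 6 and 0 in MMP2sh1 (median 0.16), against 8.26% and 8.58%, and 8 and 1 in MMP2sh2 (median 0.29), against 7.07% and 5.81%. At day +2 each line had 0 higher and 1 lower (medians −0.07 and −0.05).

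Among the members that were lower, LINC00665 held 3.75, 3.29 and 2.66 CPM in subconfluent control cells, 1.54, 1.25 and 1.17 CPM in MMP2sh1 and 1.37, 1.52 and 1.73 CPM in MMP2sh2. Both knockdown lines were below control without overlap, with −1.30 ± 0.25 (SE, adjusted p = 0.0011) and −1.08 ± 0.24 (SE, adjusted p = 0.00486), and the second was lost without control replicate 1 (−0.95, adjusted p = 0.0589). At day 0 it was −0.38 in MMP2sh1 (adjusted p = 0.293) and −0.86 in MMP2sh2 (adjusted p = 0.0179), the latter lost without MMP2sh2 replicate 3 (−0.63, adjusted p = 0.114) and without control replicate 2 or 3. LINC00667, whose exons overlap those of ZBTB14 and LINC00526, was lower in MMP2sh1 at day 0, with 38.05, 36.7 and 39.3 CPM against 52.4, 52.7 and 47.1 CPM and a change of −0.42 ± 0.06 (SE, adjusted p = 8.81e-06). At day +2 it was −0.30 (adjusted p = 0.00427), lost without control replicate 3 (−0.23, adjusted p = 0.0656).

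LINC00657 (NORAD), at chr20:34633540-34638940 (GRCh37, minus strand), differed only a little but on at least 7801 reads in every library. At day −2 it held 296, 289.9 and 290.5 CPM in control, 211, 232 and 219.5 CPM in MMP2sh1 and 239, 258 and 229.7 CPM in MMP2sh2. Control stood above both lines, with −0.40 ± 0.05 (SE, adjusted p = 9.69e-06) and −0.28 ± 0.05 (SE, adjusted p = 0.00157). At day 0 MMP2sh1 was still lower by 0.20 (adjusted p = 4.18e-04) and MMP2sh2 was at −0.05 (adjusted p = 0.529). At day +2 neither was called, with 0.08 and −0.05 (adjusted p = 0.359 and 0.725).

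Both hairpins were also compared with each other. MMP2sh1 and MMP2sh2 differed in 10 of 140 members at day −2, against 10.7% of all genes (7 higher in MMP2sh1, against 5.01%, and 3 lower, against 5.69%), in 22 of 140 at day 0, against 18.5%, and in 13 of 141 at day +2, against 7.86% (10 higher, against 4.59%, and 3 lower, against 3.27%). At day 0, 15 of the 22 were higher in MMP2sh1 (8.9% of all genes were) and 7 lower (9.62%). LINC00511 separated the lines from confluence on. At day 0 it held 39.7, 36.8 and 38.4 CPM in MMP2sh1 and 29.8, 25.2 and 28.995 CPM in MMP2sh2, and at day +2 82.4, 71.4 and 79.5 CPM and 57.6, 58.02 and 57.3 CPM. No library overlapped on either day, with differences of 0.47 ± 0.07 (SE, adjusted p = 9.88e-06) and 0.43 ± 0.06 (SE, adjusted p = 8.26e-05). Against control, LINC00511 was lower in MMP2sh2 at day 0 (−0.55, adjusted p = 1.51e-06) and not called in MMP2sh1 (−0.08, adjusted p = 0.461). At day +2 it was higher than control in MMP2sh1 (0.34, adjusted p = 2.94e-04) and not called in MMP2sh2 (−0.09, adjusted p = 0.544). LINC00704 was higher in MMP2sh1 at day 0, by 1.87 (adjusted p = 0.0209). At day +2 LINC00704 was higher by 1.502, a description without a test because it was a member through the overconfluent stage alone. The 10 members higher at day +2 include LINC00704 and LINC00326, which reached the limit in the same way. LINC00926, LINC00341 and LINC00898 were lower in MMP2sh1 at day 0, with log2 fold changes of −0.92, −0.85 and −0.70 (adjusted p = 0.0235, 0.0117 and 0.00433). Without MMP2sh2 replicate 1 the day 0 values of LINC00704 and LINC00926 were 1.44 and −0.77 (adjusted p = 0.139 and 0.14). LINC00341 was lost without MMP2sh2 replicate 2 (−0.75, adjusted p = 0.0642) and LINC00898 without MMP2sh1 replicate 1 (−0.50, adjusted p = 0.0625). LINC00998 (SMIM30) was higher in MMP2sh1 at all 3 days, by 0.51, 0.36 and 0.32 (adjusted p = 1.36e-04, 1.63e-04 and 0.013), the last being 0.23 (adjusted p = 0.138) without MMP2sh1 replicate 3. LINC00707, LINC00601 and LINC00578 were higher in MMP2sh1 at day −2, by 0.52, 0.88 and 1.62 (adjusted p = 0.00302, 2.55e-04 and 0.00714). That of LINC00707 was 0.37 (adjusted p = 0.0527) without MMP2sh1 replicate 1, the library that stood apart, and that of LINC00578 was 1.45 (adjusted p = 0.0625) without MMP2sh1 replicate 2.

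These counts, too, depended on single libraries, and here again whether members moved more than other genes was not tested. At day −2 there were 5 called members without MMP2sh1 replicate 2. At day 0 there were 14 without MMP2sh1 replicate 1 and 13 without MMP2sh2 replicate 1. At day +2 there were 8 without MMP2sh1 replicate 2 or 3, 7 without MMP2sh2 replicate 1 and 6 without MMP2sh2 replicate 2.

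Last, a term for line and stage tested whether a member's change from day −2 to day +2 differed from that in control. For MMP2sh1 7 of 142 members were called (6 higher, 1 lower), against 7.4% of all genes (4.52% and 2.88%), and for MMP2sh2 5 (3 higher, 2 lower), against 4.98% (2.71% and 2.28%). Both terms use the same control libraries. LINC00452 and LINC00662 were called in each.

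LINC00452, an abundant RNA at chr13:114591279-114626485 (GRCh37, plus strand), overlaps exons of LINC00565 (SWINGN) on the other strand, near GAS6. In control it held 118, 113 and 113 CPM at day −2, 81.7, 81.4 and 87.2 CPM at day 0 and 58.7, 58.8 and 51.6 CPM at day +2. MMP2sh1 held 96.2, 101 and 97.2 CPM, 94.95, 95.1 and 93.5 CPM and 101, 93.6 and 86.1 CPM on the same days, and MMP2sh2 94.2, 86.2 and 82.3 CPM, 88.3, 83.2 and 83.4 CPM and 94.2, 97.4 and 92.4 CPM. The control days fell without overlap, while in either knockdown line the first and the last day overlapped. Control changed by −1.02 ± 0.06 (SE, adjusted p = 2.12e-14) over the expansion, against −0.07 in MMP2sh1 and 0.12 in MMP2sh2 (adjusted p = 0.396 and 0.132). The differences between these changes were 0.96 ± 0.09 (SE, adjusted p = 1.83e-08) and 1.13 ± 0.09 (SE, adjusted p = 5.05e-11), and both were called without each of the 12 libraries in turn. Against control at each day, LINC00452 was lower at day −2 (−0.22 in MMP2sh1 and −0.39 in MMP2sh2, adjusted p = 0.00869 and 1.42e-04) and higher at day +2, by 0.73 ± 0.07 (SE, adjusted p = 4.02e-09) and 0.75 ± 0.06 (SE, adjusted p = 9.51e-12). The MMP2sh1 call at day −2 was lost without control replicate 1 (−0.20, adjusted p = 0.0842).

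LINC00662, at chr19:28171980-28284913 (GRCh37, minus strand) and with exons that overlap LINC02987, was the single member whose expansion was called in opposite directions in different lines. Control held 63.3, 60.6 and 57.8 CPM at day −2 and 45.8, 44.05 and 37.6 CPM at day +2, MMP2sh1 54.3, 55.2 and 49.3 CPM and 66.1, 54.5 and 66.9 CPM, and MMP2sh2 50.8, 46.8 and 41.3 CPM and 55.7, 60.3 and 68.95 CPM. Control went down without overlap, MMP2sh2 went up without overlap, and in MMP2sh1 the days overlapped. The expansion changes were −0.51 ± 0.07 (SE, adjusted p = 4.10e-07) in control, 0.24 ± 0.08 (SE, adjusted p = 0.0157) in MMP2sh1 and 0.42 ± 0.08 (SE, adjusted p = 6.00e-05) in MMP2sh2. That of MMP2sh1 was lost without its subconfluent replicate 3 (0.18, adjusted p = 0.0892) and without its overconfluent replicate 1 or 3. The differences from control were 0.75 ± 0.11 (SE, adjusted p = 4.06e-05) and 0.92 ± 0.11 (SE, adjusted p = 1.28e-06) and were called without each of the 12 libraries in turn.

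Further members were called in 1 line. LINC00657 was at −0.02 in control (adjusted p = 0.741) and 0.46 in MMP2sh1, a difference of 0.49 ± 0.07 (SE, adjusted p = 4.36e-05). For LINC00511 the values were 1.18 and 1.60, a difference of 0.43 ± 0.11 (SE, adjusted p = 0.0107). In MMP2sh1, LINC00842 and LINC00958 fell less, by 3.53 and 0.81 against 4.31 and 1.31, with differences of 0.79 ± 0.22 (SE, adjusted p = 0.025) and 0.50 ± 0.13 (SE, adjusted p = 0.0107). That of LINC00842 was lost without any 1 of 6 of the 12 libraries (0.61 to 0.76), and that of LINC00958 without overconfluent control replicate 3 (0.43, adjusted p = 0.0532). LINC00839 fell more, by 0.78 against 0.30, with −0.47 ± 0.11 (SE, adjusted p = 0.00534). In MMP2sh2, LINC00707 fell less, by 2.54 against 3.61, with 1.08 ± 0.28 (SE, adjusted p = 0.019), and LINC00963 rose less, with −0.29 ± 0.08 (SE, adjusted p = 0.0175). LINC00162 (PICSAR) fell by 0.64 in MMP2sh2 and was at 0.10 in control (adjusted p = 0.571), a difference of −0.74 ± 0.20 (SE, adjusted p = 0.0245). The MMP2sh2 terms of LINC00707, LINC00963 and LINC00162 were lost without any 1 of 5, 3 and 4 of the 12 libraries. For LINC00707 the same term in MMP2sh1 was 0.29 (adjusted p = 0.641).

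**Figure D4:**
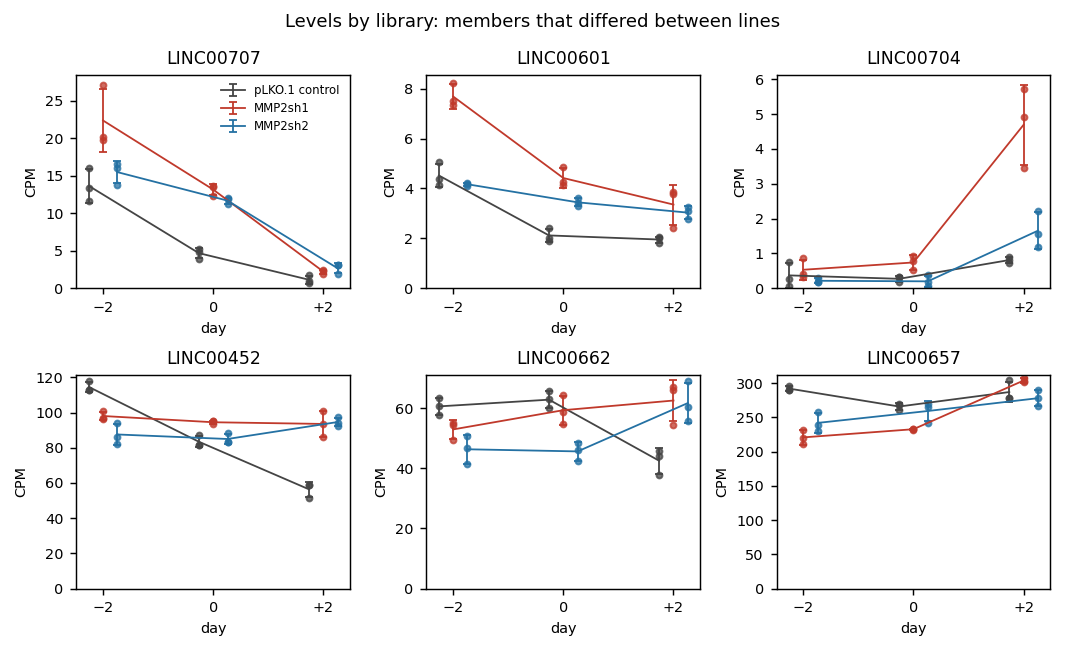
Level in CPM (y axis, from 0) by day (x axis) of 6 members in control (dark grey), MMP2sh1 (red) and MMP2sh2 (blue), with single libraries as points and means ± SD of 3 as lines and bars. LINC00452 and LINC00662 are lower in overconfluent control cells (56.4 and 42.5 CPM on average) than in either knockdown line. LINC00704 is a member through the overconfluent stage, so its values at day +2 are a description without a test.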

How the data were processed

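Poly(A) RNA of 27 U2OS libraries was sequenced as paired-end reads. According to the study's methods and the submitters' processing notes, the authors used Trim Galore 0.6.0 for trimming and STAR 2.7.3a for alignment to hg19, and deposited counts of reads per gene from HTSeq 2.0.0 (exons, union mode, no strand, minimum quality 10). Lines that name no gene held 16.8% to 19.1% of each file and were left out. From the deposited counts, each comparison was fitted on its own 6 libraries (12 for interactions) with edgeR 4.0.16 in R 4.3.3, by its quasi-likelihood test after TMM scaling. Genes had to pass filterByExpr (minimum count 10, minimum total 15), and p-values were adjusted over all genes tested (Benjamini-Hochberg). A gene was called at an adjusted p under 0.05. Levels, also those of MMP2 and the markers, are TMM-scaled CPM. Membership, mean levels over all libraries (also per kilobase), summed levels and the floor bound of LINC00326 use raw totals. SEs are the size of the log2 fold change divided by the square root of F. The edgeR script was tested on simulated data. Alternatives were DESeq2 1.42.0, median-of-ratios scaling, other filters on low counts, all 27 libraries in one fit, the replicate number as a block, and each library left out in turn.

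Members, role lists and comparison lists were chosen with earlier results of these data known. The motifs, the 100 kb limit for neighbours and the promoters shown were chosen after seeing the data. Members named were the 10 most abundant, those called at 2 or more stages with one sign in a knockdown line, the 8 largest rises and falls in control expansion, the 3 largest each way in other comparisons, those called in an interaction, those of the role lists and those at the level limit; other names were chosen after their values were seen. Positions are GENCODE v44 mapped to GRCh37, found by symbol for 96 members and by RefSeq synonym for 33. Promoters are RefSeq sequences on GRCh38.p14. Total counts of 33580129 to 59374327 per library set the precision of rare members.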

Additional observations from a re-analysis of the deposited data

Results flagged for a closer look

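The change from subconfluent to overconfluent differed from that of control in 12 tests of a member, by the interaction of line and stage in edgeR (adjusted over all genes). In MMP2sh1 the differences (log2) were 0.96 for LINC00452, 0.79 for LINC00842, 0.75 for LINC00662, 0.50 for LINC00958, 0.49 for LINC00657 (NORAD), 0.43 for LINC00511 and −0.47 for LINC00839. In MMP2sh2 they were 1.13 for LINC00452, 1.08 for LINC00707, 0.92 for LINC00662, −0.29 for LINC00963 and −0.74 for LINC00162 (PICSAR). Both terms use the same 6 control libraries. Groups of 3 libraries were not searched for single outlying values.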

How the results depend on the processing

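No call of a named member changed its sign under any alternative that was run. Of 303 such calls, 105 were lost without at least 1 library. With 10 counts in every library 33 calls had no value, and with DESeq2 3. Of the 269 with a value under every alternative, 174 were kept under all. Of those with a value, DESeq2 lost 18, all 27 libraries in one fit 20, no filter on low counts 22, median-of-ratios scaling 5 and 10 counts in every library 1. With 10 counts in every library, 8 members were called for the MMP2sh2 interaction in place of 5; the cause was not tested.

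Leaving out 1 library at a time, called members ranged from 6 to 16, 12 to 13 and 11 to 16 in MMP2sh1 against control at days −2, 0 and +2. They ranged from 5 to 11, 9 to 14 and 2 to 6 in MMP2sh2 against control, and from 5 to 10, 13 to 20 and 6 to 11 between the hairpins. Expansion gave 70 to 78 in control, 67 to 77 in MMP2sh1 and 62 to 67 in MMP2sh2, the control steps 34 to 40 and 45 to 50, and the interactions 6 to 9 in MMP2sh1 and 3 to 7 in MMP2sh2 (3 without overconfluent control replicate 3).

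The replicate numbers are shared between groups, but nothing in the labels pairs the samples. Over 22107 genes, the deviations of 42 same-numbered pairs correlated at −0.08 to 0.13, with 2 pairs over 0.1, and 13 of 42 libraries correlated best with their own number. With the replicate number as a block, called members were 14, 16 and 15 in MMP2sh1, 11, 14 and 5 in MMP2sh2, 14, 22 and 15 between the hairpins, 81, 77 and 72 in expansion of control, MMP2sh1 and MMP2sh2, 44 and 54 at the control steps, and 8 and 5 in the interactions. The block lost 9 calls of named members. For the fits with a library left out or with the block, shares of all genes are not given, so these member counts have no baseline. Depth limits members near 1 CPM, whose calls rest on few reads.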
